A study of Mus musculus with 3 samples.

Results

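The oxidative phosphorylation genes were taken by symbol from the gene list of the series: subunits of complex I (Nduf), of complex III (Uqcr), of cytochrome c oxidase, which is complex IV (Cox4 to Cox8), and of the ATP synthase, which is complex V (Atp5). The rule found 81 nuclear genes, of which 38 carry complex I names, 8 complex III names, 18 complex IV names and 17 complex V names. The 13 protein-coding genes of the mitochondrial genome were kept apart from them. Together these are 94 of the 32285 genes measured. Complexes are given here by gene name, so Ndufa4, whose protein is now assigned to complex IV, is counted with the Nduf genes.

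The study profiled mouse tumour tissue by droplet single-cell RNA-seq in 3 libraries, 1 per group. The library labelled CKO+RI came from a host of the strain Sfrp2ΔCol1a2, in which Sfrp2 is removed in cells that use the Col1a2 promoter (chiefly fibroblasts), given radiation and an immune checkpoint inhibitor (RI). The Flox+RI library came from an Sfrp2 fl/fl host given the same pair of treatments, and the Flox+ICI library from an Sfrp2 fl/fl host given the checkpoint inhibitor alone. All hosts carried LLC1-sgLkb1 cells, a Lewis lung carcinoma (LLC) line labelled as an LKB1 knockdown, injected into the tail vein and later also under the skin, where the irradiated tumour grew. The lesion that was sampled, the inhibitor, the age and sex of the mice and the number of mice per library are not given in the sources used here. Whether the line is a single clone is not given either.

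The libraries held 9300 barcodes (CKO+RI), 13340 (Flox+RI) and 10842 (Flox+ICI), with totals of 161250286, 101840883 and 75543561 unique molecular identifiers (UMIs, counted molecules) in that order, and 29866 cells were kept in all. Pairs of libraries shared 26 to 29 barcodes. Sfrp2 itself gave 42 UMIs in CKO+RI (19 cells), 8 in Flox+RI (5 cells) and 6 in Flox+ICI (6 cells). Fibroblast-like cells held 0, 1 and 2 of them, so these counts do not check the genotype, and the library is called by its label. Cell types were set by marker genes, and 7 of 17 marker lists gave at least 50 cells in every library: LLC tumour, macrophage, classical monocyte, neutrophil, T cell, endothelial and alveolar type 2 (AT2) cells. These names stand for cells that are like the type by its markers. The tumour-like cells had Xist at 2.83 to 3.72 counts per 1000000 UMIs of the type (CPM), against 224 to 328 CPM in AT2-like cells. AT2 cells belong to lung, and 157 to 451 of them were found per library. With 1 library per group, no test between groups was made. CPM is a share of the RNA of a type, so a lower level of these genes and more RNA of other genes cannot be told apart.

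Complex I passes electrons from NADH, complex III passes them on to cytochrome c, and complex IV hands them to oxygen. The protons these complexes pump drive the ATP synthase. Most subunits are encoded in the nucleus, while a small core of complexes I, III, IV and V is encoded and transcribed in the mitochondrion itself, so the same machine draws on both genomes. Some nuclear subunits have alternative isoforms used by particular tissues or at low oxygen.

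Promoter sequence was available for 66 of the 81 nuclear genes. It is shown for 5 genes whose levels recur in the results: the widely used isoforms Cox6a1 and Cox6b1, the alternative isoform Cox6b2, and the complex I genes Ndufs6 and Ndufa4. The windows come from RefSeq on build GRCm38.p6 and hold 250 bases before and 50 bases after the start, 300 bases in all, written 5′ to 3′ on the gene's strand. Capitals mark matches to 3 motifs searched on both strands: the NRF1 motif (GCGCA, any 1 base, then GCGC), the ETS motif CCGGAAG and the YY1 motif AAGATGGC.
Cox6a1, chr5:115348909-115349208, minus strand: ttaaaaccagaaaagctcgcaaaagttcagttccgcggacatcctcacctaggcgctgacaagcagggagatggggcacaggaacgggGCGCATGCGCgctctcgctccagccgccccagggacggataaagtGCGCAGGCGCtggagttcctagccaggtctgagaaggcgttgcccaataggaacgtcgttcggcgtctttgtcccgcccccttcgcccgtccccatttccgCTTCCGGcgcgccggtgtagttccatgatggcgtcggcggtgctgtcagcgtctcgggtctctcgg
Cox6b1, chr7:30626065-30626364, minus strand: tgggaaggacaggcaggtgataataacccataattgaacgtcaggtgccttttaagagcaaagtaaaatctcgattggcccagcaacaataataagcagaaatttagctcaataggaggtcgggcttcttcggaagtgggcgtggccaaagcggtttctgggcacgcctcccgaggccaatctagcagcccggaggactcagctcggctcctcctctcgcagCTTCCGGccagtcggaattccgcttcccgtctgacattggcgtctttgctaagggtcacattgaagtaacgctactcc
Cox6b2, chr7:4753045-4753344, minus strand: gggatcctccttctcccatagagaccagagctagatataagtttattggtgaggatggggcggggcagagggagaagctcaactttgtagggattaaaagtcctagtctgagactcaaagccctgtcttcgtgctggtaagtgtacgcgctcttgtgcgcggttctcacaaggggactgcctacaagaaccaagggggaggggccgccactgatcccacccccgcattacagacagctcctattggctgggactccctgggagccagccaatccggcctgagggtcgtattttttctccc
Ndufs6, chr13:73328433-73328732, minus strand: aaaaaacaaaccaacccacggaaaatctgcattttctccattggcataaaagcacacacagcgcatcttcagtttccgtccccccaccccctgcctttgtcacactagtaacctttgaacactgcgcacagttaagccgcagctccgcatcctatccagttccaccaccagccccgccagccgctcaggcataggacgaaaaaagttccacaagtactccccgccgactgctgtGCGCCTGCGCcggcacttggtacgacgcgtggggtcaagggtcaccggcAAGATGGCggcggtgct
Ndufa4, chr6:11907401-11907700, minus strand: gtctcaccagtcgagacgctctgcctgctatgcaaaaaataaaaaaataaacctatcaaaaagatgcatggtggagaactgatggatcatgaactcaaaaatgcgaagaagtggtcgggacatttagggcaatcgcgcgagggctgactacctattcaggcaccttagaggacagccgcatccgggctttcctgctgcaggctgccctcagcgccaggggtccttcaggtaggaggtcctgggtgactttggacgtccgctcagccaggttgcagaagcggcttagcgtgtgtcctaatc
The Cox6a1 window held 2 NRF1 matches and 1 ETS match, the Cox6b1 window 1 ETS match, and the Ndufs6 window 1 NRF1 and 1 YY1 match. No match to these letters was found in the Cox6b2 and Ndufa4 windows. Over the 66 genes, the NRF1 motif was found for 15 (22.7%), against 5.19% of all 27025 genes with a window of this length (4.60% of all 32851 windows). The ETS motif was also found for 15 (22.7%), against 9.93% of all genes (8.86% of windows). The YY1 motif was found for 10 (15.2%), against 3.19% of all genes (2.75% of windows). The TATA box letters TATAAA were found for 8 (12.1%), against 15.7% of all genes (13.6% of windows). The windows of these genes had a median GC content of 57.3%, against 52.7% over all windows, and 2 of the motifs are rich in G and C. These matches are letters in a window and were not tested as binding sites.

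Neutrophils had the lowest summed level of the nuclear genes in all 3 libraries. Their sum was 11252 CPM in CKO+RI, 14726 CPM in Flox+RI and 9337 CPM in Flox+ICI. Classical monocytes had 21463, 18629 and 20749 CPM in the same libraries, and were highest in CKO+RI and Flox+ICI. In order of the mean, monocytes had 20280.3 ± 1474 CPM, tumour cells 18799 ± 1524, T cells 18313 ± 1198, macrophages 18000 ± 1187, AT2 cells 16336 ± 2746, endothelial cells 15321 ± 1653 and neutrophils 11772 ± 2732 (SD, n = 3 libraries each, which differ in treatment). The ranges of each neighbouring pair in this order overlapped, although endothelial cells exceeded neutrophils within each of the 3 libraries. The span between types was narrow: the highest type had 1.91 times the lowest in CKO+RI, 1.36 times in Flox+RI and 2.22 times in Flox+ICI. Within single cells of at least 1000 UMIs, nuclear genes made up a median of 1.92%, 1.97% and 1.67% of tumour cell UMIs in CKO+RI, Flox+RI and Flox+ICI. The medians in neutrophils were 1.08%, 1.39% and 0.88%. They rest on 509 of 585, 169 of 1252 and 896 of 1535 neutrophils, so in Flox+RI on a small part of them. In tumour cells 4596 of 4608, 3989 of 4064 and 3118 of 3124 cells had that depth. Neutrophils are known to rely on glycolysis and to hold few mitochondria.

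The 13 mitochondrially encoded genes spread the types further apart. AT2 cells, which make surfactant, had 39511 CPM in CKO+RI, 31168 CPM in Flox+RI and 38988 CPM in Flox+ICI, the highest mean of the 7 types at 36556 ± 4673 CPM (SD, n = 3). Neutrophils had 7409, 12005 and 7958 CPM, a mean of 9124 ± 2510 CPM. In between lay tumour cells (31075 ± 6102), endothelial cells (25282 ± 2280), macrophages (25023 ± 2433), T cells (20617 ± 1251) and monocytes (19351 ± 1214). Only the steps between macrophages and T cells and between monocytes and neutrophils were free of overlap among neighbours. Per nuclear UMI of the chain, AT2 cells held 2.66, 1.60 and 2.66 mitochondrial UMIs in CKO+RI, Flox+RI and Flox+ICI, and neutrophils 0.66, 0.82 and 0.85. Monocytes, highest for the nuclear genes, had only 0.86, 1.11 and 0.91. Each cell had at most 20% mitochondrial UMIs by the filter, and these levels are also a common measure of cell quality, whose part was not tested.

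**Figure D1:**
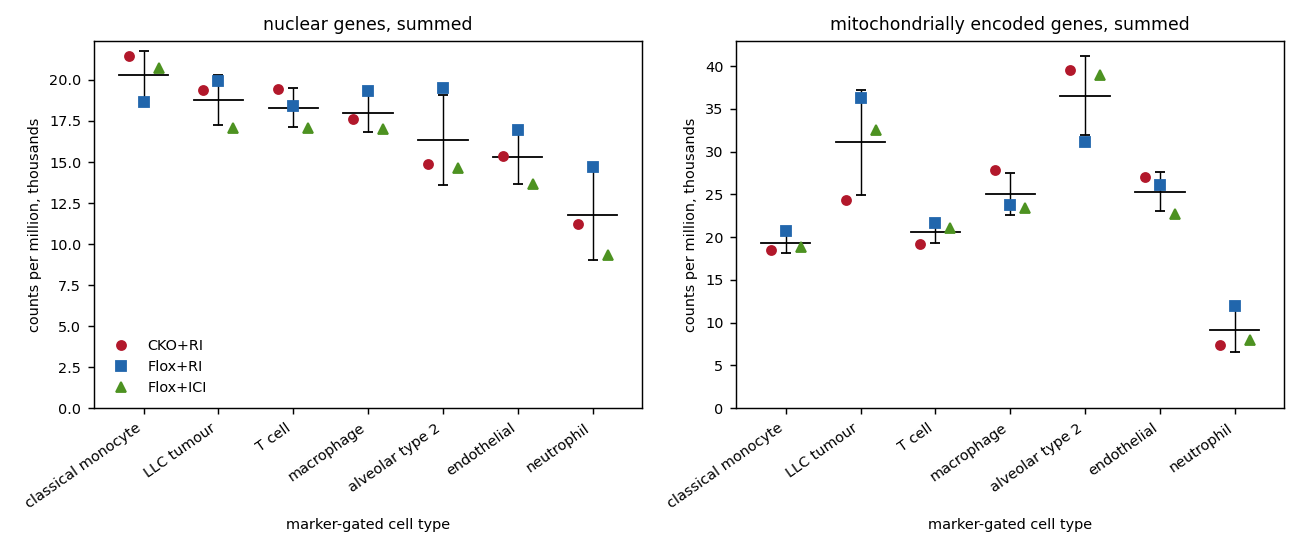
Summed level (CPM divided by 1000, linear axis from 0) of the 81 nuclear and the 13 mitochondrially encoded genes in each of 7 cell types; a point is 1 library, the line is the mean and its error bar the SD over 3 libraries. Neutrophils are lowest in both panels, and AT2 cells have the highest mean of the mitochondrially encoded genes at 36556 CPM.

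Each type was then set against the mean of the other 6 with edgeR's quasi-likelihood test, with the library as a block, over 12261 genes, and calls were made at a Benjamini-Hochberg adjusted p of 0.05. The 3 libraries stand as replicates of a type although their treatments differ. The block takes out any shift of a library that all types share. These p-values therefore set a difference against how unevenly the types shift from library to library. That spread was estimated over all types together, so it is not the spread of the named type alone. Of the nuclear genes, 76 passed the filter on low counts, as did the 13 mitochondrially encoded genes. The 5 that did not pass were Cox7b2, Cox8b and Cox8c, with 3, 9 and 1 UMIs over all cells, Cox7a1 with 583 and Ndufa4l2 with 1027.

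Classical monocytes had 35 of 76 nuclear genes higher and 1 lower than the other types, against 20.5% of all genes higher and 14.5% lower. Complex I gave 17 higher of 37 tested, complex III 2 of 8, complex IV 8 of 14 and complex V 8 of 17. The count of higher genes was 44 with DESeq2, but 12 without CKO+RI and 8 without Flox+ICI. Ndufb1-ps, annotated as a noncoding transcript at a complex I subunit locus, had 270.5 CPM in CKO+RI, 155 CPM in Flox+RI and 194 CPM in Flox+ICI, against 129, 81.3 and 80.6 CPM as the mean of the other types. It was higher in all 3 libraries, by 1.08 on the log2 scale (SE 0.13, adjusted p 1.06e-06). Its exons share bases with Cpsf2 on the other strand, and the strand of the counts is not given. Cox6b2 had only 11.6, 5.74 and 12.5 CPM, against 3.83, 4.04 and 3.62 CPM as the mean of the other types. It was still called higher, by 2.36 (SE 0.39, adjusted p 8.52e-05). The fit averages log levels, and the low values of tumour cells (0.258, 0.085 and 0.416 CPM) lower that average. Ndufa12, an accessory subunit of complex I, was the 1 lower gene, at 123, 163 and 127 CPM against 177, 213 and 158 CPM (-0.39, SE 0.12, adjusted p 0.0129).

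Macrophages had 24 higher and 1 lower, against 22.4% and 17.0% of all genes. The higher count was 4 without Flox+ICI, 14 without Flox+RI, 15 without CKO+RI, 13 without doublet removal and 14 without TMM scaling (edgeR's correction for RNA composition). Of the 14 complex IV genes tested, 7 were higher. Cox5a, a nuclear subunit of cytochrome c oxidase, had 539 CPM in CKO+RI, 507 CPM in Flox+RI and 577 CPM in Flox+ICI, against 323, 352 and 321 CPM in the other types (log2 0.83, SE 0.12, adjusted p 9.63e-06). Ndufa4 was the lower gene, at 186, 105 and 95.4 CPM against 264, 185 and 190 CPM (-0.63, SE 0.21, adjusted p 0.0199). Cox6a2 was called higher (1.97, SE 0.63, adjusted p 0.0188), yet its 3.78, 1.77 and 9.60 CPM lay below the arithmetic mean of the other types in each library, since AT2 cells raise that mean.

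LLC tumour cells had 26 nuclear genes higher and 15 lower, against 40.5% and 29.6% of all genes. The balance differed between tools: DESeq2, with its own size factors and test, called 14 higher and 31 lower, while edgeR without TMM called 25 and 14. The median of all genes was 0.13 on the log2 scale in edgeR, 0.15 without TMM and -0.16 in DESeq2. Without CKO+RI the counts were 15 and 14, and without Flox+ICI they were 19 and 8. Complex I had 14 higher and 6 lower of 37 in edgeR, but 8 and 12 with DESeq2. Complex IV had 2 higher and 5 lower of 14 in edgeR, and 0 and 10 with DESeq2. Atp5b, the catalytic beta subunit of the ATP synthase, had 1031 CPM in CKO+RI, 1119.9 CPM in Flox+RI and 994 CPM in Flox+ICI, against 448, 528 and 412 CPM in the other types. It was higher by 1.21 (SE 0.11, adjusted p 5.46e-09), with no overlap between the tumour values and the means of the other types. Ndufa4 had 407, 362 and 253 CPM against 227, 142 and 163 CPM (0.997, SE 0.18, adjusted p 5.78e-05). Cox4i2 and Cox6b2, alternative isoforms of complex IV, were nearly silent there: Cox4i2 had 0.156, 0.283 and 0.666 CPM (-3.92, SE 0.66, adjusted p 3.41e-05), and Cox6b2 had 0.258, 0.085 and 0.416 CPM (-3.84, SE 0.47, adjusted p 5.28e-07). Complex IV made up 24.1%, 23.7% and 23.4% of the nuclear UMIs of tumour cells, against 29.3%, 30.05% and 30.9% in neutrophils.

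Endothelial cells had 3 nuclear genes higher and 51 lower, against 21.6% and 20.3% of all genes. All 4 complexes took part, with 24 lower of 37 in complex I, 4 of 8 in complex III, 10 of 14 in complex IV and 13 of 17 in complex V. Without TMM the lower genes were 3, 0, 3 and 3 of these, and complex III had 2 higher. The total rested on the scaling: without TMM it was 7 higher and 9 lower, while the median of all genes moved from -0.06 to 0.26. It was 29 lower without CKO+RI and 20 lower without Flox+ICI. Atp5e, the epsilon subunit of the ATP synthase, had 305 CPM in CKO+RI, 274 CPM in Flox+RI and 176 CPM in Flox+ICI, against 414, 427 and 330.0 CPM in the other types (-0.93, SE 0.15, adjusted p 2.77e-05). Ndufb1-ps had 89.9, 50.8 and 53.5 CPM against 159, 98.7 and 104 CPM (-1.15, SE 0.16, adjusted p 5.28e-06). Ndufc2, a complex I accessory subunit, went the other way, at 192, 200.3 and 199 CPM against 135, 96.8 and 107 CPM (0.62, SE 0.13, adjusted p 6.00e-04). In neutrophils the same gene had 49.6, 48.1 and 37.5 CPM against 159, 122 and 134 CPM (-1.12, SE 0.16, adjusted p 5.16e-06).

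Neutrophils had 6 nuclear genes higher and 29 lower, against 24.3% and 25.9% of all genes, and 0 higher and 60 lower without TMM, where the median of all genes moved from -0.19 to -0.66. DESeq2 called 14 higher and 23 lower, and the stricter gate 3 higher and 29 lower. Without Flox+ICI there were 0 higher and 20 lower, and without CKO+RI 2 higher and 19 lower. Complex I gave 16 lower of 37 and complex V 8 of 17. Complex IV gave 1 higher and 1 lower of 14, and 9 lower without TMM. Ndufs3, a core subunit of complex I, had 50.4 CPM in CKO+RI, 53.1 CPM in Flox+RI and 24.8 CPM in Flox+ICI, against 109, 116 and 110.2 CPM in the other types (-0.99, SE 0.15, adjusted p 1.38e-05). Atp5l and Ndufa3 were called higher (0.52 and 0.46, adjusted p 0.00124 and 0.0180), but stood above the mean of the other types in only 1 of the 3 libraries, and Ndufa3 had no difference without TMM (-0.0041).

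T cells had 1 nuclear gene higher and 12 lower, against 21.9% and 24.9% of all genes, and 19 higher and 0 lower without TMM. DESeq2 called 7 higher and 14 lower. The lower count was 6 without CKO+RI, 3 without Flox+RI and 1 without Flox+ICI. The 1 higher gene in edgeR was Uqcrh, the hinge subunit of complex III, at 566 CPM in CKO+RI, 402 CPM in Flox+RI and 438 CPM in Flox+ICI, against 337, 249 and 266 CPM in the other types (0.50, SE 0.11, adjusted p 0.00109). Uqcrb and Uqcr11, small subunits of the same complex, were lower (-0.49 and -0.48, SE 0.13 and 0.12, adjusted p 0.00373 and 0.00273). Complex III therefore held 1 higher and 3 lower genes of 8 in T cells, and 3 higher and 0 lower without TMM.

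AT2 cells had 16 nuclear genes higher and 2 lower, against 20.8% and 13.4% of all genes. The counts were 6 higher and 0 lower without CKO+RI and without Flox+ICI, 7 and 7 without Flox+RI, 5 and 0 without doublet removal, 5 and 2 without the filter on low counts and 7 and 4 without TMM. Ndufs4 and Atp5c1, the gamma subunit of the ATP synthase, were lower (-0.40 and -0.39, SE 0.14 each, adjusted p 0.0298 and 0.0360). The 13 mitochondrially encoded genes were all higher in AT2 cells, with a median of 1.15 on the log2 scale, and 12 or 13 of them were under every alternative that kept them. The complex I genes mt-Nd2, mt-Nd4l and mt-Nd5 differed most, by 2.07, 1.98 and 1.91 (SE 0.19, 0.24 and 0.20, adjusted p 3.70e-08, 1.76e-06 and 2.95e-07). mt-Co2, a core subunit of complex IV, differed by 0.67 (SE 0.10, adjusted p 1.49e-05).

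In neutrophils, 12 of the 13 mitochondrially encoded genes were lower and none higher, with a median of -1.10 and 10 to 12 lower under every alternative that kept them. mt-Nd1 had 239.8 CPM in CKO+RI, 459 CPM in Flox+RI and 249 CPM in Flox+ICI, and differed by -1.58 (SE 0.18, adjusted p 4.20e-07). mt-Co1, the catalytic core of complex IV, differed by -0.68 (SE 0.13, adjusted p 2.05e-04). mt-Nd6 was the gene not called (-0.22, SE 0.41, adjusted p 0.691). The remaining types gave fewer calls. Tumour cells had 7 higher and 0 lower, against 40.5% and 29.6% of all genes, and 3 higher with DESeq2, 4 without Flox+ICI and 5, with 1 lower, without Flox+RI. Macrophages had 4 higher, against 22.4% of all genes, and 2 without TMM or without Flox+ICI and 0 without CKO+RI. Monocytes had 4 lower, against 14.5% of all genes, and 1 without TMM, without CKO+RI or without Flox+ICI. T cells had 6 lower, against 24.9% of all genes, and 1 without TMM, 2 without Flox+ICI and 4 without CKO+RI or Flox+RI. Endothelial cells had 2 lower, against 20.3% of all genes, and 1 without CKO+RI, 0 without Flox+ICI and 0, with 4 higher, without TMM.

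Genes of neighbouring processes were counted in the same fits. Of all genes, 40.5% were higher and 29.6% lower in tumour cells, 24.3% and 25.9% in neutrophils, 21.6% and 20.3% in endothelial cells, 22.4% and 17.0% in macrophages and 20.8% and 13.4% in AT2 cells. Proteins of the mitochondrial ribosome, which translate the mitochondrially encoded genes, had 60 higher and 3 lower of 78 in tumour cells (48 and 7 with DESeq2, 57 and 3 without TMM). Neutrophils had 3 higher and 34 lower of them (8 and 26 with DESeq2, 1 and 64 without TMM). Endothelial cells had 4 higher and 29 lower, but 13 higher and 3 lower without TMM. Of 13 tricarboxylic acid cycle genes, 8 were higher and 0 lower in tumour cells (8 and 2 with DESeq2), and 1 higher and 7 lower in neutrophils (0 and 11 without TMM). Of 38 assembly factors of the complexes, 21 were higher and 7 lower in tumour cells (17 and 11 with DESeq2). Complex II, which feeds electrons from succinate, had 4 of 4 genes higher in macrophages (3 without TMM) and 2 of 4 lower in neutrophils (3 without TMM). Glycolysis, which makes ATP without oxygen, had 10 of 16 higher in tumour cells and 9 of 16 in macrophages, with 0 lower in edgeR. DESeq2 gave 9 higher and 1 lower in tumour cells and 5 higher and 0 lower in macrophages. In neutrophils 7 of 16 glycolysis genes were higher and 0 lower, but 3 and 3 without TMM. AT2 cells had 1 higher and 11 lower of the 16 (1 and 13 without TMM).

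**Figure D2:**
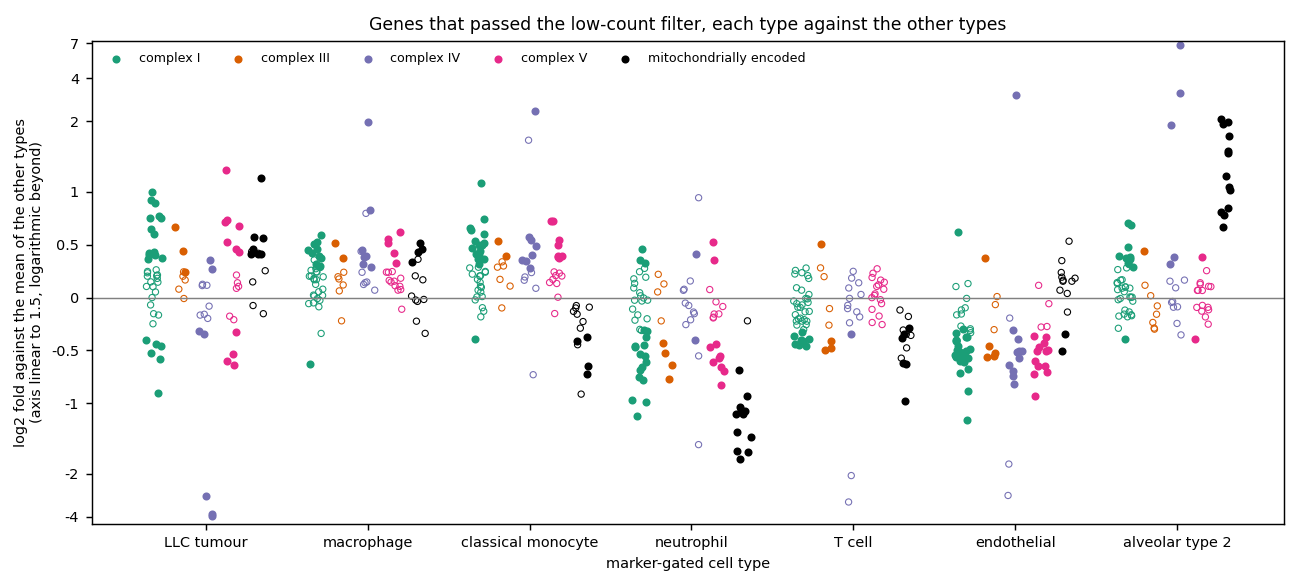
Log2 difference of each gene in a cell type from the mean of the other 6 types (edgeR; vertical axis, linear to 1.5 and logarithmic beyond), for 76 nuclear and 13 mitochondrially encoded genes; a point is a gene, coloured by complex and filled where its adjusted p passed 0.05. The mitochondrially encoded genes lie above 0 in AT2 cells (median 1.15) and below 0 in neutrophils (median -1.10), while most nuclear genes lie within 1 of 0.

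The largest log2 differences between types belonged to alternative isoforms. Cox6a2 is the isoform of subunit 6a known from heart and skeletal muscle, and Cox6a1 its common counterpart. Cox6a2 had 83, 25 and 133 UMIs in the AT2 cells of CKO+RI, Flox+RI and Flox+ICI, or 122, 38.7 and 97.0 CPM, against a mean of 1.75, 2.08 and 1.83 CPM in the other types. It was higher by 6.78 on the log2 scale (SE 0.45, adjusted p 5.09e-10). It made up 39.0%, 16.2% and 36.9% of the summed Cox6a1 and Cox6a2 UMIs of AT2 cells. A Cox6a2 UMI was found in 28.0% (21.2 to 35.7), 10.5% (6.32 to 16.03) and 17.1% (13.7 to 20.9) of AT2 cells, whose median depths were 3700.0, 1840.5 and 2648 UMIs. The share was 0.65%, 0.20% and 0.64% of tumour cells at median depths of 25719, 16335 and 14818 UMIs, and in fibroblasts no cell had one. The intervals are exact binomial (Clopper-Pearson) at 95% and cover counting error only. Between libraries the AT2 level of Cox6a2 had a ratio of 3.15 (1.996 to 5.15) in CKO+RI against Flox+RI and of 0.399 (0.249 to 0.614) in Flox+RI against Flox+ICI. Itgad, whose exons share bases with Cox6a2, had 1, 0 and 0 UMIs in AT2 cells.

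Cox6b2, the isoform of subunit 6b known from testis, was also higher in AT2 cells, at 11.7, 18.6 and 13.9 CPM (3.16, SE 0.42, adjusted p 4.34e-06). The largest shares lay in types too small for the test. In fibroblasts Cox6b2 made up 22.5% of the Cox6b1 and Cox6b2 UMIs in CKO+RI (31 UMIs), 5.13% in Flox+RI (2 UMIs) and 32.8% in Flox+ICI (44 UMIs). The fibroblasts numbered 97, 16 and 195 cells, and 18, 2 and 35 of them had a Cox6b2 UMI. In alveolar macrophages its share was 10.1%, 6.67% and 9.42%, and in tumour cells 0.096%, 0.034% and 0.194%.

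Cox4i2 and Ndufa4l2 are known from hypoxia and from vessel-wall cells, and replace or resemble Cox4i1 and Ndufa4. Cox4i2 made up 23.5%, 30.3% and 30.5% of the Cox4i1 and Cox4i2 UMIs of mural cells (pericyte and smooth muscle) in CKO+RI, Flox+RI and Flox+ICI, from 23, 43 and 29 UMIs. Only 14, 11 and 24 mural cells were found, of which 8, 7 and 12 had a Cox4i2 UMI. In endothelial cells Cox4i2 had 4.18 CPM in CKO+RI, 26.1 CPM in Flox+RI and 52.6 CPM in Flox+ICI, against 4.09, 5.11 and 3.04 CPM in the other types (3.07, SE 0.53, adjusted p 1.07e-04). These values rest on 4, 18 and 60 UMIs, and a single endothelial cell held up to 9 of them. Ndufa4l2 made up 57.1%, 96.4% and 57.1% of the Ndufa4 and Ndufa4l2 UMIs of mural cells (20, 108 and 12 UMIs). In fibroblasts it made up 10.5%, 76.7% and 10.2% (10, 46 and 9 UMIs), and 1 fibroblast of Flox+RI alone held 23 of its 46. In endothelial cells it made up 0.90%, 16.2% and 10.8%, from 2, 12 and 21 UMIs in 1, 5 and 9 cells. Tumour cells were low, at 0.70%, 0.72% and 1.02%. Shares compare UMIs of 2 genes with no correction for length.

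Of the remaining isoform families, Cox7b carried 99.5% to 100% of the UMIs of its family and Cox8a 99.7% to 100% of its own. The subunit 7a family and that of the ATP synthase c subunit were shared out more evenly. Of the subunit 7a genes, Cox7a2l carried 48.3% to 68.0% and Cox7a2 31.7% to 51.7% over the 7 types and 3 libraries. Cox7a1, the muscle form, had 0.349%, 0.120% and 0.169% in tumour cells of CKO+RI, Flox+RI and Flox+ICI. The ATP synthase c subunit is made from 3 genes, of which Atp5g2 carried 40.4% to 55.0%, Atp5g1 25.7% to 38.4% and Atp5g3 14.4% to 26.3%. Their mature proteins are known to be identical, so these shares concern which gene is transcribed. No type used 1 of the 3 genes alone.

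**Figure D3:**
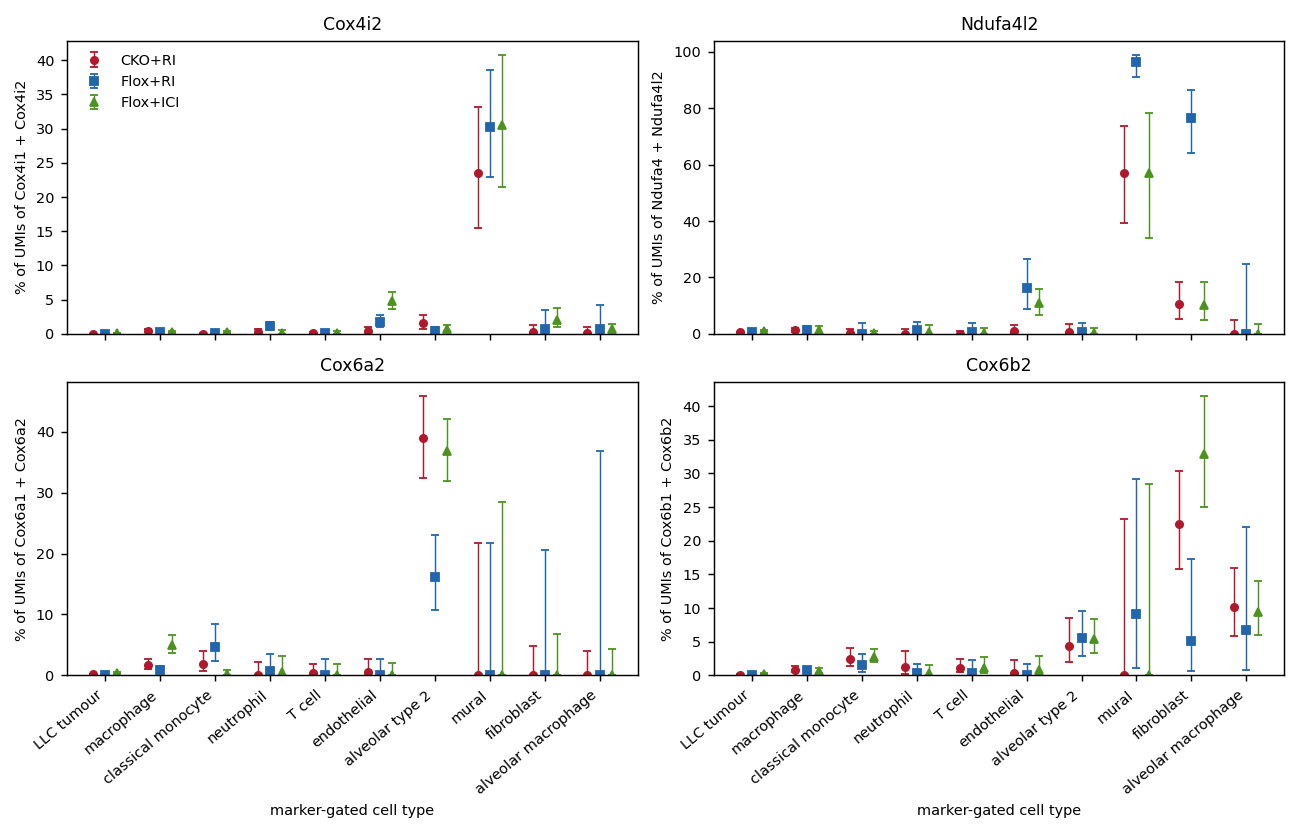
Percent of the UMIs of an isoform pair carried by Cox4i2, Ndufa4l2, Cox6a2 and Cox6b2 (a panel each, linear axes from 0) in 10 cell types; a point is 1 library and its error bar the exact binomial 95% interval. Cox6a2 stands out in AT2 cells (39.0%, 16.2% and 36.9%) and Cox4i2 in mural cells (23.5%, 30.3% and 30.5%).

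The comparison of CKO+RI with Flox+RI asks what the host's Sfrp2 genotype changes under the same treatment. A gene was called past a fold of 1.5 in either direction if it had at least 50 UMIs in the 2 libraries together, and the intervals given cover counting error only. Over the 7 types, 513 pairs of nuclear gene and type were measured, of which 34 (6.63%) were higher and 44 (8.58%) lower in CKO+RI, against 15.2% and 13.9% over all genes. The summed level hardly moved in tumour cells, at 19359 CPM in CKO+RI and 19963 CPM in Flox+RI, a ratio of 0.970 (0.968 to 0.972). The ratio was 1.15 in monocytes, 1.06 in T cells, 0.912 in macrophages, 0.906 in endothelial cells, 0.764 (0.746 to 0.783) in neutrophils and 0.762 (0.742 to 0.782) in AT2 cells.

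AT2 cells had 21 nuclear genes lower and 2 higher of 73 measured, against 20.8% of all genes lower and 16.6% higher. Complex V held 9 of the lower genes among its 17, with a summed ratio of 0.683 (0.651 to 0.716). Neutrophils had 16 lower of 73, a share near the 23.8% of all genes, and 1 gene, Ndufb1-ps, past the fold and higher. There Atp5d, the delta subunit of the ATP synthase, had 209 CPM in CKO+RI and 399 CPM in Flox+RI, a ratio of 0.524 (0.444 to 0.617). Ndufs7, which carries an iron-sulfur cluster of complex I, had 97.3 and 178 CPM, a ratio of 0.546 (0.427 to 0.696). The neutrophils had a median of 1871 UMIs in CKO+RI and 732.5 in Flox+RI, with 76 of 585 and 1083 of 1252 cells under 1000 UMIs. Their own markers summed to 28636 and 17912 CPM. The part of these in the neutrophil ratios was not tested. Monocytes had 12 higher and 0 lower of 73, against 23.6% and 14.1% of all genes, so both shares lay below those of all genes. Of the 12, 9 were complex I genes, which as a share of complex I is near the 23.6% of all genes. Igkc and Ighg2b, antibody transcripts, were among the 10 leading genes of these monocytes in CKO+RI and not in the other libraries, and their part in the result was not tested. T cells had 8 higher and 0 lower of 73, against 13.4% and 9.53%. Tumour cells had 6 higher and 1 lower of 75, against 10.4% and 14.2%. Macrophages had 1 higher and 1 lower of 74, against 15.9% and 10.3%, and endothelial cells 4 higher and 5 lower of 72, against 21.0% and 10.7%.

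Some genes ran one way in all 7 types, which come from the same 2 libraries. How many of all genes did so was not counted, so it cannot be said that this is particular to these genes. Ndufb9, an accessory subunit of complex I, was lower in CKO+RI in each, at ratios of 0.605 to 0.929, and passed the fold in 4. In tumour cells it had 458 CPM in CKO+RI and 737 CPM in Flox+RI, a ratio of 0.622 (0.614 to 0.629), and in macrophages 288 and 454 CPM (0.634, 0.592 to 0.678). The annotation places Gm49356 over exons of Ndufb9 on the same strand, so its reads may be split. Ndufs6, a complex I subunit that carries zinc and whose promoter is shown above, had ratios of 0.526 to 0.840. It had 85.8 CPM in CKO+RI neutrophils and 163 CPM in Flox+RI neutrophils. Cox4i1, the common isoform of subunit 4, had 1328 CPM in CKO+RI and 1889 CPM in Flox+RI in macrophages and ranged from 0.640 to 0.970 over the types. Ndufs7, Ndufa12, Uqcrq, Uqcr10 and Atp5h were also below 1 in all 7, and all 8 genes lay below the median ratio of all genes in each type.

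Ndufb1-ps ran the other way, at ratios of 1.25 to 2.17, past the fold in 5 types. In T cells it had 158 CPM in CKO+RI and 72.8 CPM in Flox+RI, a ratio of 2.17 (1.62 to 2.95). Ndufa4 was above 1 in all 7 types and most so in monocytes, at 284 CPM in CKO+RI and 91.9 CPM in Flox+RI (3.09, 2.46 to 3.91). In endothelial cells Ndufa4 had 229.9 and 90.0 CPM (2.56, 1.92 to 3.44), but in tumour cells 407 and 362 CPM (1.13, 1.11 to 1.14). Cox7c, a small subunit of complex IV, ranged from 1.09 to 1.74, Uqcrh from 1.11 to 1.81 and Ndufb3 from 1.06 to 1.70, although Ndufb3 lay below the median ratio of all genes in 1 type. The largest ratio among tumour cells was that of Cox7a1, the muscle isoform of subunit 7a, at 2.75 CPM in CKO+RI and 0.876 CPM in Flox+RI (3.13, 2.39 to 4.17). Atp5mpl, a small subunit of the ATP synthase, had 96.2 and 46.0 CPM there (2.09, 2.01 to 2.17). It was below 1 in neutrophils, endothelial cells and AT2 cells, at 0.647, 0.631 and 0.659.

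The other genes named for each type lay nearer to 1. In tumour cells Atp5o, which joins the stalk of the ATP synthase to its head, had 238 CPM in CKO+RI and 327 CPM in Flox+RI (0.728, 0.715 to 0.740), and Ndufa6 a ratio of 0.742 (0.721 to 0.764). Atp5o was also lower in T cells, at 252 and 343 CPM (0.734, 0.626 to 0.863). In monocytes Uqcrh had 471 CPM in CKO+RI and 260.4 CPM in Flox+RI (1.81, 1.57 to 2.10), and Ndufb11, an X-linked complex I subunit, 348 and 198 CPM (1.76, 1.49 to 2.08). Ndufs7 went the other way there, at 178 and 256 CPM (0.697, 0.582 to 0.835). In macrophages Ndufa4 had 186 CPM in CKO+RI and 105 CPM in Flox+RI (1.77, 1.59 to 1.97), Cox7c 303 and 210.0 CPM (1.44, 1.33 to 1.56) and Ndufs6 120.4 and 180.5 CPM (0.667, 0.600 to 0.741). In neutrophils 2 Nduf genes were above 1 among many below it. Ndufb1-ps had 134 CPM in CKO+RI and 81.1 CPM in Flox+RI (1.65, 1.25 to 2.18), and Ndufs4 89.4 and 60.1 CPM (1.49, 1.07 to 2.08). In T cells Ndufa3, a small accessory subunit of complex I, had 90.9 CPM in CKO+RI and 47.2 CPM in Flox+RI (1.93, 1.33 to 2.85), from 132 and 37 UMIs.

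The mitochondrially encoded genes differed between types in this comparison. Of 77 pairs, 9 (11.7%) were higher and 19 (24.7%) lower, against 15.2% and 13.9% over all genes. In tumour cells their sum was 24361 CPM in CKO+RI and 36284 CPM in Flox+RI, a ratio of 0.671 (0.670 to 0.672). There 9 of 13 were past the fold and lower, against 14.2% of all genes. In neutrophils the sums were 7409 and 12005 CPM (0.617, 0.600 to 0.635), with 7 of 9 measured genes lower, against 23.8% of all genes. The neutrophil ratio was 0.998 without doublet removal. In AT2 cells the sums were 39511 and 31168 CPM (1.27, 1.25 to 1.29), with 6 of 11 higher, against 16.6% of all genes. Over the alternatives the AT2 ratio ranged from 1.10 to 1.87, wider than its counting interval. mt-Nd2, a proton-pumping subunit of complex I, had 410.3 CPM in CKO+RI and 1055 CPM in Flox+RI in tumour cells (0.389), 142 and 369 CPM in neutrophils (0.384), but 2589 and 1444 CPM in AT2 cells (1.79). mt-Co1 did not follow, at 4396 and 4094 CPM in tumour cells (1.07), 1532 and 1529 CPM in neutrophils (1.002) and 5995 and 3460.1 CPM in AT2 cells (1.73). Flox+ICI tumour cells had 1098 CPM of mt-Nd2, near Flox+RI. AT2 cells of CKO+RI had a median of 3.26% mitochondrial UMIs per cell and those of Flox+RI 1.92%, beside LLC tumour marker sums of 880 and 1447 CPM. That marker list includes the keratin genes Krt7, Krt8, Krt18 and Krt19. Its members Igf2bp1, Trap1a, Prl2c2 and Prl2c3 were at 0 in AT2 cells of both libraries. The part of the mitochondrial shares and marker sums in the result was not tested.

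**Figure D4:**
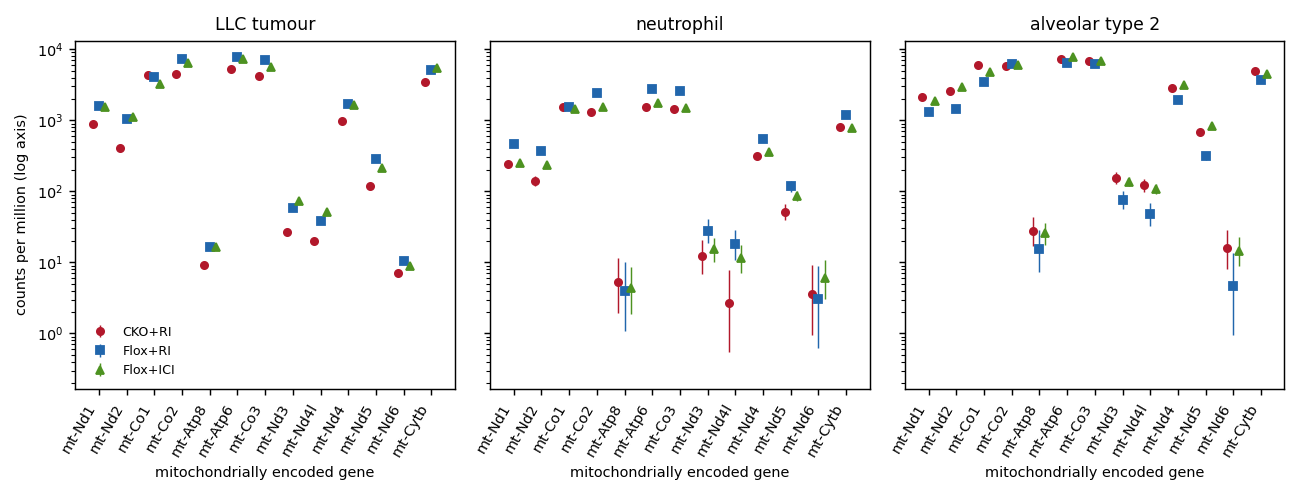
Level (CPM, log axis) of each of the 13 mitochondrially encoded genes in LLC tumour, neutrophil and AT2 cells, a panel each; a point is 1 library and its error bar the exact Poisson 95% interval. In CKO+RI, mt-Nd2 lies below Flox+RI in tumour cells (410.3 against 1055 CPM) and above it in AT2 cells (2589 against 1444 CPM).

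The comparison of Flox+RI with Flox+ICI asks what radiation adds to the checkpoint inhibitor. It shares the Flox+RI library with the first comparison, so the 2 sets of ratios are not independent. Of 515 pairs of nuclear gene and type, 82 (15.9%) were higher and 11 (2.14%) lower in Flox+RI, against 10.3% and 17.7% over all genes. The summed level was above 1 in 6 of 7 types: 1.58 (1.54 to 1.61) in neutrophils, 1.33 (1.30 to 1.36) in AT2 cells, 1.24 in endothelial cells, 1.17 in tumour cells, 1.13 in macrophages and 1.08 in T cells. It was 0.898 (0.883 to 0.913) in monocytes, and 1.04 there relative to the median ratio of all genes.

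Neutrophils had 47 of 73 nuclear genes higher and 0 lower, against 31.7% of all genes higher and 11.8% lower. The median log2 ratio of the 73 was 0.68, beside 0.25 over all genes measured. All 4 complexes held such genes, with 24 of 37 in complex I, 4 of 8 in complex III, 7 of 11 in complex IV and 12 of 17 in complex V. Ndufs6 had 163 CPM in Flox+RI and 73.3 CPM in Flox+ICI, a ratio of 2.23 (1.76 to 2.82). Uqcrq, a small subunit of complex III, had 319.5 and 159 CPM (2.005, 1.70 to 2.36), and Cox4i1 1303 and 812 CPM (1.61, 1.49 to 1.73). Ndufb1-ps did not differ within counting error, at 81.1 and 81.6 CPM (0.994, 0.749 to 1.31). The neutrophils of Flox+RI were shallow, with a median of 732.5 UMIs and 1083 of 1252 cells under 1000 UMIs, against 1083 UMIs and 639 of 1535 cells in Flox+ICI. Their own markers summed to 17912 CPM in Flox+RI and 26801 CPM in Flox+ICI, and LLC tumour markers to 539 and 218 CPM, with Prl2c2, Prl2c3, Igf2bp1 and Trap1a at 0 in both. The part of these in the result was not tested. Over the alternatives the summed ratio ranged from 1.33 to 1.61.

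AT2 cells had 22 nuclear genes higher and 1 lower of 73, against 10.4% and 20.1% of all genes, and endothelial cells 12 higher and 2 lower of 73, against 12.6% and 23.8%. In tumour cells 0 of 76 were higher and 2 lower, against 5.47% and 21.0%, although 60 of the 76 ratios lay above 1. The median log2 ratio of the nuclear genes was 0.19 there, while that of all genes was -0.24. Macrophages had 0 higher and 2 lower of 74, against 7.32% and 9.43%. T cells had 1 higher and 0 lower of 73, against 4.84% and 12.3%. Monocytes had 0 higher and 4 lower of 73, against 10.9% and 24.1%.

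Genes above 1 in all 7 types included Ndufs6 (1.19 to 2.23), Uqcrq (1.22 to 2.005), Uqcr10 (1.18 to 2.03), Uqcr11 (1.11 to 2.14) and Ndufa12 (1.17 to 2.20), each also above the median ratio of all genes in every type. Here too, how many of all genes ran one way was not counted. Ndufs6, Ndufs7, Uqcrq, Uqcr10, Ndufa12, Ndufb9 and Atp5h were all above 1 in all 7 types here. The same genes were below 1 in all 7 types in CKO+RI against Flox+RI. Each was thus highest in Flox+RI, the library that both comparisons share. The part of that library in both patterns was not tested. Uqcrq had 369 CPM in Flox+RI and 259 CPM in Flox+ICI in tumour cells and 380.3 and 206 CPM in AT2 cells. Ndufb9 had 737 and 502 CPM in tumour cells (1.47, 1.45 to 1.49). Uqcrc1, a core protein of complex III, had 236 and 165 CPM there (1.43, 1.39 to 1.47). Ndufa4 again had the ratio farthest from 1 in monocytes, at 91.9 CPM in Flox+RI and 231 CPM in Flox+ICI (0.397, 0.317 to 0.494). Ndufb11 had 198 and 361 CPM (0.549, 0.470 to 0.638), and Atp5f1, subunit b of the ATP synthase stalk, 338 and 496 CPM (0.681, 0.604 to 0.767). Monocyte Ndufs7 was above 1 instead, at 256 CPM in Flox+RI and 193 CPM in Flox+ICI (1.33, 1.14 to 1.54). The macrophage markers of the monocytes summed to 958 CPM in Flox+RI, against 420 CPM in CKO+RI and 432 CPM in Flox+ICI, and their part in these ratios was not tested. In macrophages Cox6a2 had 10 UMIs in Flox+RI and 43 in Flox+ICI, and Ndufs1, the largest core subunit of complex I, had 20.3 and 30.8 CPM (0.659, 0.510 to 0.850). Atp5h, subunit d of the stalk, was above 1 in macrophages, at 735 CPM in Flox+RI and 544.5 CPM in Flox+ICI (1.35, 1.28 to 1.42).

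In tumour cells 2 genes were past the fold and lower in Flox+RI. Atp5mpl had 46.0 CPM in Flox+RI and 74.8 CPM in Flox+ICI (0.616, 0.587 to 0.646), and Cox4i2 had 20 and 32 UMIs (0.425, 0.230 to 0.766). Ndufa4 in tumour cells had 362 CPM in Flox+RI and 253 CPM in Flox+ICI (1.43, 1.40 to 1.46), the opposite side of 1 from monocytes. In T cells the 1 gene past the fold was Ndufs5, an accessory subunit of complex I, at 158 CPM in Flox+RI and 105 CPM in Flox+ICI (1.51, 1.17 to 1.94). Atp5g3, a c subunit gene, had 137 and 192 CPM in T cells (0.711, 0.561 to 0.895). Among neutrophil genes Ndufc1 and Cox7b, accessory subunits of complexes I and IV, stood beside Ndufs6 at the top. Ndufc1 had 94.1 CPM in Flox+RI and 38.6 CPM in Flox+ICI (2.44, 1.77 to 3.37), and Cox7b 184 and 84.4 CPM (2.18, 1.75 to 2.72). At the other end Ndufa8 (0.973, 0.779 to 1.21) and Ndufs4 (0.948, 0.682 to 1.31) had intervals that include 1.

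The mitochondrially encoded genes gave 7 higher (8.86%) and 6 lower (7.59%) of 79 pairs in this comparison, against 10.3% and 17.7% over all genes. The 7 higher pairs were all in neutrophils, whose sum was 12005 CPM in Flox+RI and 7958 CPM in Flox+ICI (1.51, 1.47 to 1.55). Without doublet removal none of the 7 passed the fold. AT2 cells had 5 of the 6 lower pairs and a summed ratio of 0.799 (0.787 to 0.812), which ranged from 0.554 to 0.864 over the alternatives.

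**Figure D5:**
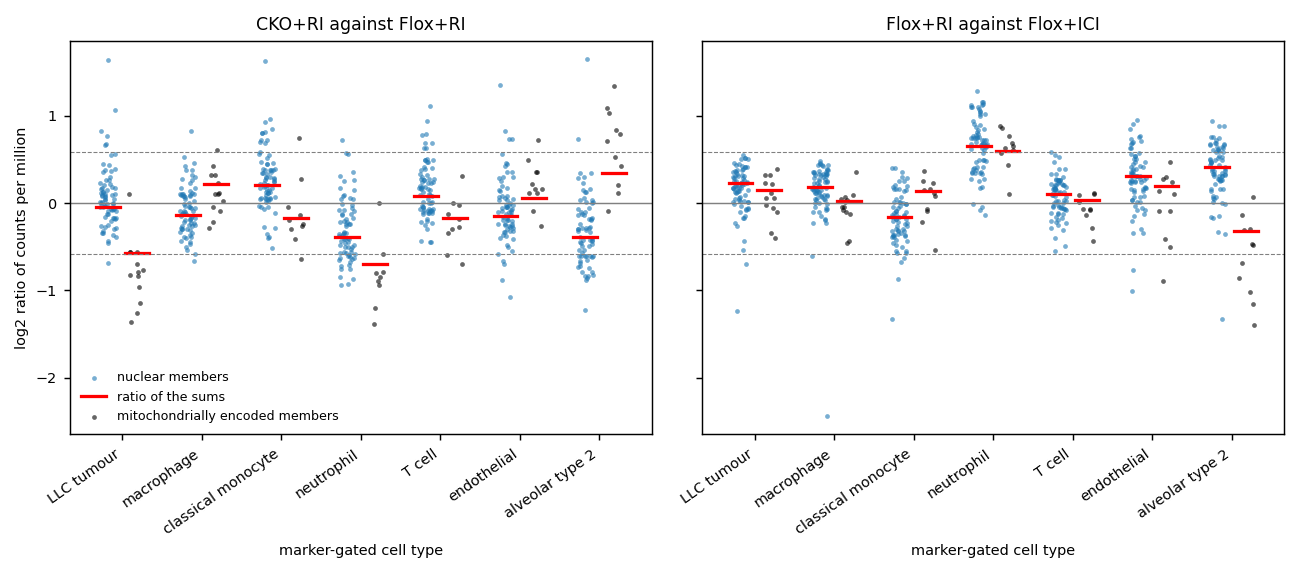
Log2 ratio of CPM by cell type, CKO+RI against Flox+RI in the left panel and Flox+RI against Flox+ICI in the right; a point is a gene with at least 50 UMIs in the 2 libraries (blue nuclear, black mitochondrially encoded), the red line is the ratio of the sums and dashed lines mark a fold of 1.5. The ratios of the nuclear sums run from 0.762 to 1.15 in the left panel and from 0.898 to 1.58 in the right, with neutrophils the highest there.

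Between libraries, the neighbouring processes differed as follows. The sum of 16 glycolysis genes was above 1 in all 7 types in Flox+RI against Flox+ICI (1.29 to 2.72), with 80 of 105 pairs higher. In CKO+RI against Flox+RI the same sum lay at 0.40 to 0.98, with 35 of 105 pairs lower, and in each type it stayed on the same side of the median ratio of all genes. Over all genes, 10.3% of pairs were higher and 17.7% lower in Flox+RI against Flox+ICI, and 15.2% and 13.9% in CKO+RI against Flox+RI. Genes of the mitochondrial ribosome gave 88 higher (18.6%) and 12 lower (2.54%) of 473 pairs in Flox+RI against Flox+ICI. In CKO+RI against Flox+RI they gave 20 higher (4.33%) and 61 lower (13.2%) of 462, the lower share being near that of all genes. The tricarboxylic acid cycle, the main source of NADH, gave 4 higher (4.76%) and 3 lower (3.57%) of 84 in Flox+RI against Flox+ICI, and 5 higher (6.49%) and 2 lower (2.60%) of 77 in CKO+RI against Flox+RI. Complex II gave 1 higher and 1 lower of 27 (3.70% each) in Flox+RI against Flox+ICI, and 6 higher (23.1%) and 0 lower of 26 in CKO+RI against Flox+RI. Haemoglobin genes, made by red cells, were higher in CKO+RI than in Flox+RI in all 26 pairs.

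The type and library sums of the nuclear genes were correlated, as a description over 21 sums that share libraries and depth, with the other genes. Of 5702 genes of sufficient level, the most alike by Pearson's r were Mrpl54 (0.93), Mrpl57 (0.90), Nubp1 (0.90), Ssr4 (0.90) and Spcs2 (0.89), followed by Mrps25, Rex1bd, Ndufaf8, Chchd1 and Elof1 (0.87 to 0.88). Among the genes themselves, Ndufa11 (0.95), Ndufb5 (0.94) and Atp5j2 (0.93) ran closest to the sum, and mt-Nd4l (0.11), mt-Nd5 (0.21) and Ndufa8 (0.22) ran least with it. The nuclear genes are parts of this sum and the mitochondrially encoded ones are not, so their values of r are not of one kind. The sum of the mitochondrially encoded genes had an r of 0.55, that of the mitochondrial ribosome 0.84 and that of glycolysis 0.36. That of 10 genes of the stress response to tissue dissociation was -0.56. Of these 10, 7 were higher and 0 lower in neutrophils and 0 higher and 8 lower in tumour cells (edgeR; 7 and 0, and 0 and 9, with DESeq2). All genes gave 24.3% and 25.9% in neutrophils and 40.5% and 29.6% in tumour cells. Monocytes, highest in the mean nuclear sum, had 4 stress genes higher and 0 lower, against 20.5% and 14.5% of all genes. Macrophages had 5 and 2, endothelial cells 4 and 0, AT2 cells 2 and 1 and T cells 0 and 4. The sum of the 10 stress genes was 6511 ± 961 CPM in neutrophils and 1405 ± 405 CPM in tumour cells (SD, n = 3), with no overlap. In monocytes it was 3316 ± 610 CPM. The part of the stress genes in the levels of the nuclear genes was not tested.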

How the data were processed

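The data were 10x single-cell UMI counts of mouse tumour tissue, 3 libraries with 1 per group, deposited by the authors as raw counts per gene and barcode with no normalization. Cell Ranger 6.1.2 made them per the file headers, while the submitters' processing notes name Cell Ranger 6.0, Seurat 5.0.3 and the builds mm10 and GRCm38. Whether the kit reads the 5′ or 3′ end, and the strand used in counting, are not given in the sources used here. The exons of 28 nuclear genes share bases with a gene on the other strand and those of 5 with one on the same strand. The labels give no number of mice, so the spread between libraries mixes treatment, animals and technique.

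A barcode was kept with 200 or more genes detected and a mitochondrial share of 20% or less. Scrublet in scanpy 1.11.5 scored doublets, and the top scores at a rate of 0.8% per 1000 barcodes were removed (653 in CKO+RI, 1367 in Flox+RI, 915 in Flox+ICI), leaving 8383, 11706 and 9777 cells. Cells were gated on marker lists that hold none of the oxidative phosphorylation genes. The score was the summed log1p of counts per 10000, and a cell took the leading type if it had at least 2 distinct markers, 3 marker UMIs and a lead of 1.5 times over the next list. These thresholds were set after the data were seen. Types needed 50 cells in every library. UMIs were summed per library and type and given as CPM, the UMIs per 1000000 of the type's total, with no length scaling because a UMI counts a molecule. The genes, the marker lists and the lists of neighbouring processes were chosen with earlier results of these data known.

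Types were compared with edgeR 4.0.16 (TMM, filterByExpr, quasi-likelihood test, library as a block, 12 residual degrees of freedom, Benjamini-Hochberg over all genes tested) and, as an alternative, DESeq2 1.42.0. The steps were tested on simulated data. Libraries were compared with no test: a ratio of CPM carries an exact conditional binomial 95% interval and a level an exact Poisson one. A gene needed 50 UMIs in the 2 libraries, and 0.5 counts were added to both UMI counts for median log2 ratios only. Correlations used log2(CPM + 10) of genes with at least 20 CPM in most sums.

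Named genes were the isoform families with at least 20 UMIs, the 2 called genes with the largest difference in each direction per type, and per comparison the 3 highest and 3 lowest by the interval bound nearest to 1 in the 5 types with most cells. The genes running one way in all 7 types, mt-Nd1, mt-Nd2, mt-Co1, mt-Co2, mt-Nd6, the promoters shown and the remaining genes outside this rule were chosen after their values were seen. Alternatives were DESeq2, no filter, no TMM (added after the data were seen), leaving out each library, mitochondrial limits of 10% and none, no doublet removal, a stricter gate of 3 distinct markers, totals without mitochondrial genes, ratios relative to the median ratio, equal cell weight, cells thinned to 1000 UMIs, and a fold of 2. Promoters came from RefSeq on GRCm38.p6 and were matched by symbol or synonym. Python 3.11.15, numpy 2.4.6, scipy 1.17.1 and pandas 2.3.3 were used.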

Additional observations from a re-analysis of the deposited data

Results flagged for a closer look

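Between the library labelled CKO+RI and the Flox+RI library, 4 mitochondrially encoded complex I genes had whole intervals past the fold of 1.5 in opposite directions in different cell types, with AT2 cells above 1 and tumour cells below it. mt-Nd2 had ratios of 1.79 in AT2 cells, 0.389 in tumour cells and 0.384 in neutrophils. mt-Nd5 had 2.13, 0.418 and 0.434 in the same types, and mt-Nd1 1.64, 0.564 and 0.523. mt-Nd4l had 2.54 in AT2 cells and 0.514 in tumour cells, and too few UMIs in neutrophils. The neutrophil ratio of the summed mitochondrially encoded genes was 0.617, but 0.998 without doublet removal, so the neutrophil values above may rest on that step. With 1 library per group, the difference between types was not tested. How many of all genes were past the fold in opposite directions between types was not counted. It therefore cannot be said that this is particular to these genes. mt-Nd3 also had ratios past the fold, 2.06 in AT2 cells and 0.451 in tumour cells, but its AT2 interval (1.45 to 2.95) reached within the fold.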

How the results depend on the processing

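No paired analysis was possible because each group holds 1 library. In the comparison of types, 111 nuclear calls were higher and 111 lower, and leaving out 1 library gave 40 to 91 and 49 to 95. The mitochondrially encoded genes gave 24 calls each way, against 18 to 22 and 13 to 23 without a library. Their lower calls were 14 without TMM, where Ndufa3 in neutrophils also turned to -0.0041. Between CKO+RI and Flox+RI, 34 nuclear pairs were higher and 44 lower, and 9 and 19 mitochondrially encoded ones. With equal cell weight 15 mitochondrially encoded pairs were higher, and at a fold of 2 the counts were 6 and 2 nuclear, 3 and 5 mitochondrially encoded. Between Flox+RI and Flox+ICI, 82 nuclear pairs were higher and 11 lower, and 7 and 6 mitochondrially encoded ones. Relative to the median ratio, 7 nuclear were lower and 3 mitochondrially encoded higher. Equal cell weight left 13 mitochondrially encoded lower, no doublet removal left 0 higher, and a fold of 2 gave 15 and 5 nuclear, 0 and 3 mitochondrially encoded. The other 95 recomputed totals over the types stayed within 1.5 times. Counts of nuclear genes within a type held less well: 132 moved further than that and 274 did not. Without TMM, for example, the lower nuclear genes went from 51 to 9 in endothelial cells, 29 to 60 in neutrophils and 12 to 0 in T cells. The causes were not tested. 3 summed ratios changed side of 1. The endothelial mitochondrially encoded one in CKO+RI against Flox+RI was 1.04 and reached 0.940 relative to the median ratio or with equal cell weight. In Flox+RI against Flox+ICI the macrophage mitochondrially encoded one was 1.02 and reached 0.984 with equal cell weight or thinning, and the monocyte nuclear one was 0.898 and reached 1.04 relative to the median ratio. Depth limits genes under 50 UMIs in the 2 libraries and the small mural and fibroblast groups, and no interval here covers variation between mice.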
